A study of Mus musculus with 32 samples.

Results

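The genes described here are 68 protein-coding mouse genes of motile cilia and of the ependyma, out of 53715 genes measured in whole tissue. The rule reads symbols and no values, though it was set with earlier results of these data known: every gene named Cfap, Rsph, Tekt, Drc or Spag, plus Ccdc39, Ccdc40, Hydin, Foxj1, Kif19a, Kif9, Tmem212, Mcidas and Dynlrb2. Tissue was taken from 2 brain regions, amygdala and hippocampus, in 16 adult male mice, all F1 hybrids labelled 129xB6, with 4 mice in each of 4 genotypes. The genotypes were wildtype (WT), a heterozygous Kmt2a deletion (Kmt2a-HET), deletion of the single X-linked copy of Kdm5c (Kdm5c-KO), and both mutations together (DM). KMT2A adds and KDM5C removes methyl groups on lysine 4 of histone H3, and the study asked whether the 2 mutations offset each other. Each mouse gave 1 library per region, so the 32 libraries are whole-tissue RNA from 16 animals. Both mutations were present in every cell of the body and not in a chosen cell type.

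Motile cilia are beating hairs built on a ring of microtubule doublets around a central pair. In the brain they are carried by ependymal cells, which line the ventricles and move cerebrospinal fluid. The choroid plexus, an epithelium continuous with the ependyma, is also ciliated. FOXJ1 and RFX factors switch on most genes of the motile cilium, and MCIDAS acts above FOXJ1 when a cell becomes multiciliated. Dynein arms on the doublets drive bending, while radial spokes, nexin links and the central apparatus regulate it. Many Spag symbols refer only to sperm antigens, and several of those genes work in all cells.

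Library depth ranged from 19215503 to 27798980 gene counts. Between 60 and 66 of the 68 genes had a count in any 1 library, and 3 counts corresponded to 0.108 to 0.156 CPM (gene counts scaled to a common total). Summed Kdm5c counts remained at 1300 ± 89.7 in Kdm5c-KO amygdala against 1620 ± 329 in WT (normalised count, mean ± SD, n = 4). Kmt2a stood at 4241 ± 474 in Kmt2a-HET amygdala against 4203 ± 1490 in WT. Only some exons were deleted, so these gene totals do not check the labels. Summed choroid plexus markers (15 genes) were uneven among libraries. They lay between 54.8 and 91.1 CPM in 14 of the 16 amygdala libraries but at 398 and 2027 CPM in DM replicates 3 and 1. In the hippocampus they ran from 45.1 to 1148 CPM in WT, 43.6 to 122 in Kmt2a-HET, 64.8 to 5019 in Kdm5c-KO and 51.9 to 1348 in DM. No marker of that list was at 0 in every library, and Steap1 and Kcne2 had a median under 3 counts in the amygdala.

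The ependymal label held in part. Foxj1, the transcription factor of motile ciliogenesis, averaged 13.5 ± 6.16 TPM (SD, n = 16 libraries) in amygdala, where TPM is a level per transcript length, and 10 ± 6.59 TPM in hippocampus. Tmem212, a membrane protein of ependymal cells, reached 4.03 ± 2.40 and 2.38 ± 1.45 TPM, and Kif19a, a kinesin that trims ciliary length, 5.89 ± 1.20 and 4.02 ± 0.642 TPM. Mcidas was close to the floor, with a mean of 4.31 counts a library and 29 of 32 libraries with any count. The symbols also gathered genes that are not restricted to cilia. The highest level of all was that of Spag9, a scaffold of kinase signalling and axonal transport, at 119 TPM over the 32 libraries. It was followed by Cfap36 (97.3 TPM), Spag7 (55.7 TPM), the dynein arm assembly gene Cfap298 (47.7 TPM) and Cfap20 (34.2 TPM). The median of the 68 genes was 3.17 TPM. Cfap97d1 and Spag11a had no count in any library, and Spag11b had counts in 2.

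Levels differed by role. The 5 genes of the nexin links and of the ruler that spaces them had a median of 8.47 TPM and were led by Drc1 (14.1 TPM) and Ccdc39 (10.9 TPM). The 10 radial spoke genes had a median of 3.12 TPM, with Rsph9 (28 TPM) and Rsph3b (19.1 TPM) at the top. The 12 proteins inside the doublet microtubules had a median of 2.81 TPM, led by Cfap20 and the tektin Tekt5 (12.3 TPM). The 13 genes of the central apparatus had a median of 1.65 TPM, led by Cfap74 (12.0 TPM) and Spag6l (5.05 TPM). The 6 inner arm tethers were lowest, with a median of 1.25 TPM, and Cfap100 (5.12 TPM) and Cfap44 (3.04 TPM) were their highest. Rsph3a and Rsph3b, and Spag6 and Spag6l, are near copies of each other, so reads between them may have been split unevenly.

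To see which of these genes followed 3 ependymal markers, the deviation of each gene from its group mean was compared over the 32 libraries with the mean deviation of Foxj1, Tmem212 and Kif19a, each of these being set against the other two. Deviations were in log2 CPM, and 56 of the 68 genes averaged at least 10 counts. Of these, 26 (46.4%) had a Pearson correlation of at least 0.5, against 5.93% of 16561 other genes of that depth. Among the 3 markers, each set against the other two, Foxj1 had 0.69 and Tmem212 0.64, but Kif19a had 0.36. Libraries of 1 mouse share an animal and all genes of a library share its depth, so these coefficients describe the libraries and were not tested. Over the 32 libraries the closest were Cfap157 (r = 0.87), Cfap77 (0.85), Dynlrb2, a dynein light chain (0.84), Cfap161 (0.82) and the ruler gene Ccdc40 (0.80). The opposite end held Spag9 (-0.54), the mitotic spindle gene Spag5 (-0.45) and Spag1 (-0.43). Correlations of at least 0.5 were seen in 4 of 5 nexin link and ruler genes, 5 of 8 radial spoke genes and 6 of 10 doublet proteins. They were seen in 3 of 11 central apparatus genes, 0 of 3 dynein arm assembly genes and 0 of 4 Spag genes without a ciliary role. Outside the 68 genes, the 5 closest were Ccdc153 (0.91), 2410004P03Rik (0.88), Dnali1 (0.86), Nek5 (0.86) and Stoml3 (0.85). The summed choroid plexus markers gave a correlation of at least 0.5 with 25 of the 56 genes, against 3.05% of other genes, the markers themselves left out. Of the 56 genes, 35 had the higher coefficient with the 3 ependymal markers, such as Ccdc40 (0.80 against 0.42 with the choroid plexus sum) and Tmem212 (0.64 against 0.40). Others had the higher one with the choroid plexus sum, such as Cfap206 (0.83 against 0.67) and Kif9 (0.75 against 0.52). The 3 markers summed to 12.3 to 42.0 CPM (median 34.2) in the 4 amygdala libraries numbered 1 and to 14.5 to 29.5 CPM (median 19.9) in the other 12. In the hippocampus the medians were 16.6 and 13.9 CPM. Without the libraries numbered 1, 29 of 56 members (51.8%) and 3.07% of other genes reached 0.5.

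**Figure D1:**
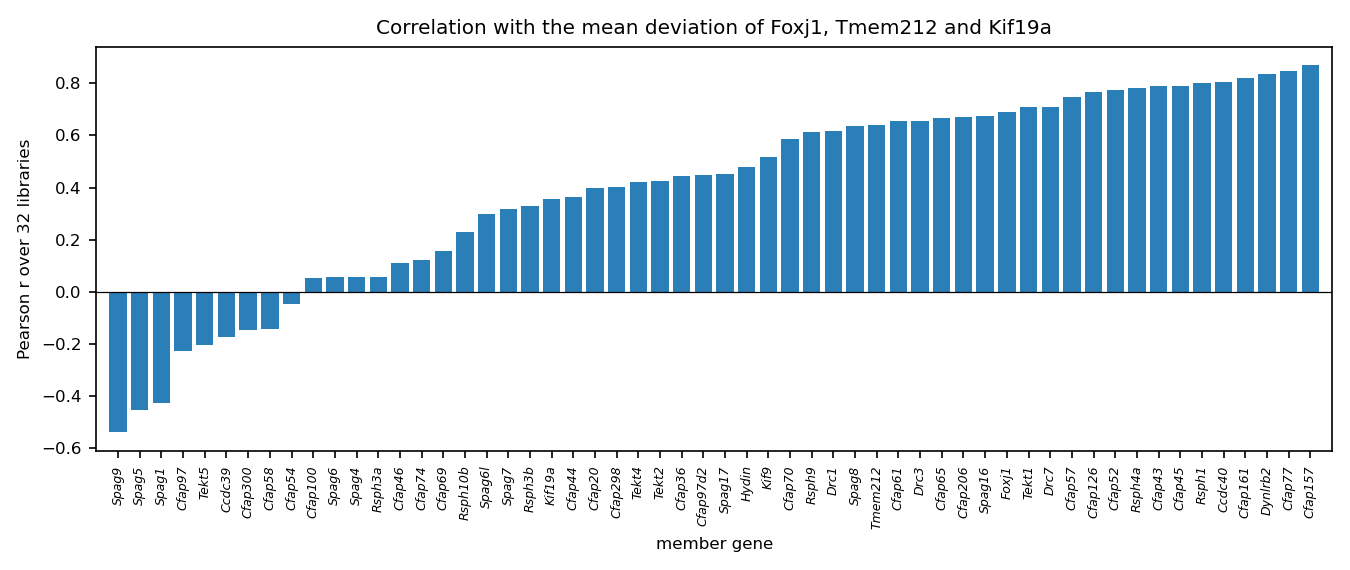
Pearson correlation of each member gene with the mean of Foxj1, Tmem212 and Kif19a (each of these 3 against the other 2), over 32 libraries and with group means removed; 56 genes with a mean of at least 10 counts. Cfap157 is highest at 0.87 and Spag9 lowest at -0.54.

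The same genes differed in how much they varied between libraries. In the amygdala the SD of log2 CPM was largest for Drc7 (1.02), Tekt2 (0.85) and Tmem212 (0.83), and smallest for Cfap36 (0.089), Cfap74 (0.13) and Ccdc39 (0.16). In the hippocampus it was largest for Drc7 (1.55), Spag16 (1.32) and Dynlrb2 (1.31), and smallest for Cfap97 (0.11), Cfap20 (0.12) and Cfap36 (0.16). Cfap36 was among the steadiest in both regions, and its correlation with the ependymal markers was 0.44.

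Sequences before the start sites were read for 53 of the 68 genes from RefSeq (GRCm38.p6). The 250 bases upstream were searched on both strands for the X-box half-site bound by RFX factors (GTTGCC), for the forkhead motif of the FOXJ1 type (GTAAACA), for an E-box (CACGTG) and for an E2F motif (TCCCGC). The half-site occurred in 20 of 62 upstream windows of these genes (32.3%), against 10.4% of 32851 windows of all genes. The forkhead motif occurred in 4.84% against 3.17%, the E-box in 4.84% against 6.02% and the E2F motif in 21% against 16.9%. A full X-box, which joins both half-sites and overlaps their matches, was present in 1 window, that of Cfap298. The half-site was found in 6 of 21 genes with a correlation of at least 0.5 (28.6%) and in 10 of 25 others (40.0%). It too was searched in 1 spelling, and Cfap45, with a variant only, was counted as having none. The split therefore describes that spelling and not X-boxes at large. Shown are the last 150 bases before the start of the inner arm tethers Cfap43 and Cfap44 and of the tektin Tekt1, which were higher without Kdm5c, and of Cfap161, which followed the ependymal markers and holds 3 half-sites. For Cfap43 this is the start of 1 transcript, well inside the annotated gene, which spans chr19:47736857-47919287 on the minus strand. Capitals mark half-sites (GTTGCC or GGCAAC) and the forkhead motif (GTAAACA, in Cfap43 alone of the 4). They read 5′ to 3′ on the strand of the gene and lie at chr19:47837362-47837511 (Cfap43, minus strand), chr16:44394649-44394798 (Cfap44, plus strand), chr11:72361883-72362032 (Tekt1, minus strand) and chr7:83794840-83794989 (Cfap161, minus strand).
Cfap43: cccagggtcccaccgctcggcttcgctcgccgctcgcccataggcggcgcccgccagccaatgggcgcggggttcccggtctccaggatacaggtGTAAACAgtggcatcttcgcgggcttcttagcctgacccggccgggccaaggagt
Cfap44: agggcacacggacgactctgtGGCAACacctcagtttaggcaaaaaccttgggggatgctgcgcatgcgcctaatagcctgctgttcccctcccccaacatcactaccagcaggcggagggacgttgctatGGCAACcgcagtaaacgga
Tekt1: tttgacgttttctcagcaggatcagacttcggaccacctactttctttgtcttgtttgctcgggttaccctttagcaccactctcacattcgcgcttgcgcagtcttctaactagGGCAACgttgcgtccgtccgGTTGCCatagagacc
Cfap161: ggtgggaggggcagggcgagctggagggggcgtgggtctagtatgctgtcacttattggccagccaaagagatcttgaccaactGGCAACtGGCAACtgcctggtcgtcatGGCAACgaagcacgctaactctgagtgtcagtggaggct
A match is a matter of letters, and no binding was measured.

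The first comparison asked how the regions differ, over the 4 genotypes and with both libraries of each mouse, without a term for the mouse. Of the 65 genes tested, 30 were lower and 4 higher in the hippocampus (DESeq2, adjusted p under 0.1). Among all genes 46.3% were called, 23.9% lower and 22.4% higher, and the median log2 difference was -0.37 for these genes and -0.01 for all genes. These directions are relative to the bulk of genes. ERCC spike-in RNA, added once RNA had been isolated, held 0.12% to 0.51% of amygdala counts and 0.050% to 0.295% of hippocampal counts. The 4 WT libraries alone spanned each range, so ERCC factors vary widely within a group. With size factors from the ERCC spike-in RNA, which moved the median of all genes by 0.65 on the log2 scale, the split turned to 5 lower and 24 higher, against 4.42% and 57.0% of all genes. The members' median lay 0.45 below that of all genes with ERCC factors (0.19 against 0.64), and 46 of 65 lay below it, against 48 of 65 with the factors used here. In bulk tissue, fewer cells of a type and less RNA per cell cannot be told apart. With the factors used here, lower genes were 7 of 12 doublet proteins, 7 of 10 radial spoke genes, 4 of 13 central apparatus genes, 2 of 5 nexin link and ruler genes and 0 of 3 dynein arm assembly genes. Of the 14 ependymal markers, 12 were lower and 1 higher, whereas 11 of 15 choroid plexus markers were higher. With ERCC factors 2 ependymal markers were lower, 1 was higher and 13 of 15 choroid plexus markers were higher.

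Tekt2, a tektin filament protein of the doublets, had the smallest adjusted p of the members. Its normalised count in the amygdala ran from 18.6 to 127 with a median of 54.2, and in the hippocampus from 2.55 to 20.2 with a median of 9.83 (n = 16 each). The 2 ranges met only at their ends, and the log2 difference was -2.58 ± 0.22 (SE, DESeq2, adjusted p = 3.48e-31). Cfap46, of the central apparatus, ran from 127 to 298 (median 215) in the amygdala and from 38.7 to 114 (median 79.5) in the hippocampus. The ranges did not overlap, and the log2 difference was -1.49 ± 0.15 (SE, DESeq2, adjusted p = 3.4e-23). Tekt5, a tektin best known from sperm, ran from 188 to 364 (median 275) against 39.8 to 245 (median 106), a log2 difference of -1.34 ± 0.17 (DESeq2, adjusted p = 9.85e-14). Tekt4, Ccdc40, Spag4, Rsph4a and Drc1 were also lower, by log2 differences of -1.78 to -0.69. With ERCC factors Tekt2, Cfap46, Tekt5, Tekt4 and Ccdc40 were also called lower, Spag4 (-0.29) and Rsph4a (-0.36) were not, and Drc1 turned to 0.02. Of the ependymal markers among the members, Kif19a had a log2 difference of -0.49 ± 0.07 (adjusted p = 3.96e-10), Tmem212 of -0.70 ± 0.30 (adjusted p = 0.0506) and Foxj1 of -0.44 ± 0.20 (adjusted p = 0.0608, all DESeq2). None of these 3 was called with ERCC factors, which turned Kif19a to 0.12 and Foxj1 to 0.08 and left Tmem212 at -0.17.

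Cfap100, a tether of inner dynein arms, went the other way. It ran from 27.8 to 75.9 (median 59.6) in the amygdala and from 85.5 to 239 (median 149) in the hippocampus, so that every hippocampal library exceeded every amygdala library. The log2 difference was 1.43 ± 0.12 (SE, DESeq2, adjusted p = 3.09e-30). Spag6 (1.05 ± 0.19), Cfap58 (0.56 ± 0.25) and Rsph3a (0.45 ± 0.09) were the other 3 higher genes, and all 4 stayed higher with ERCC factors. Cfap100 had a correlation of 0.05 with the ependymal markers and Spag6 one of 0.06. Cfap100 overlaps Zxdc on the opposite strand, and whether counting used strand is not given in the sources used here. Within WT mice alone, 13 of 65 genes were lower and 2 (Cfap100 and Rsph3a) higher, against 21.2% called among all genes (11.3% lower and 9.9% higher). The median log2 difference in WT was -0.46 for these genes and -0.02 for all genes. Without both libraries of WT replicate 2 the count fell from 15 to 8, at 16.1% of all genes. With ERCC factors 1 was lower (Tekt2) and 2 higher (Cfap100 and Rsph3a), at 8.18% of all genes. With the choroid plexus sum as an added term, 45 genes were called over the 4 genotypes (41 lower) and 35 in WT (32 lower), at 44.8% and 23.6% of all genes.

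**Figure D2:**
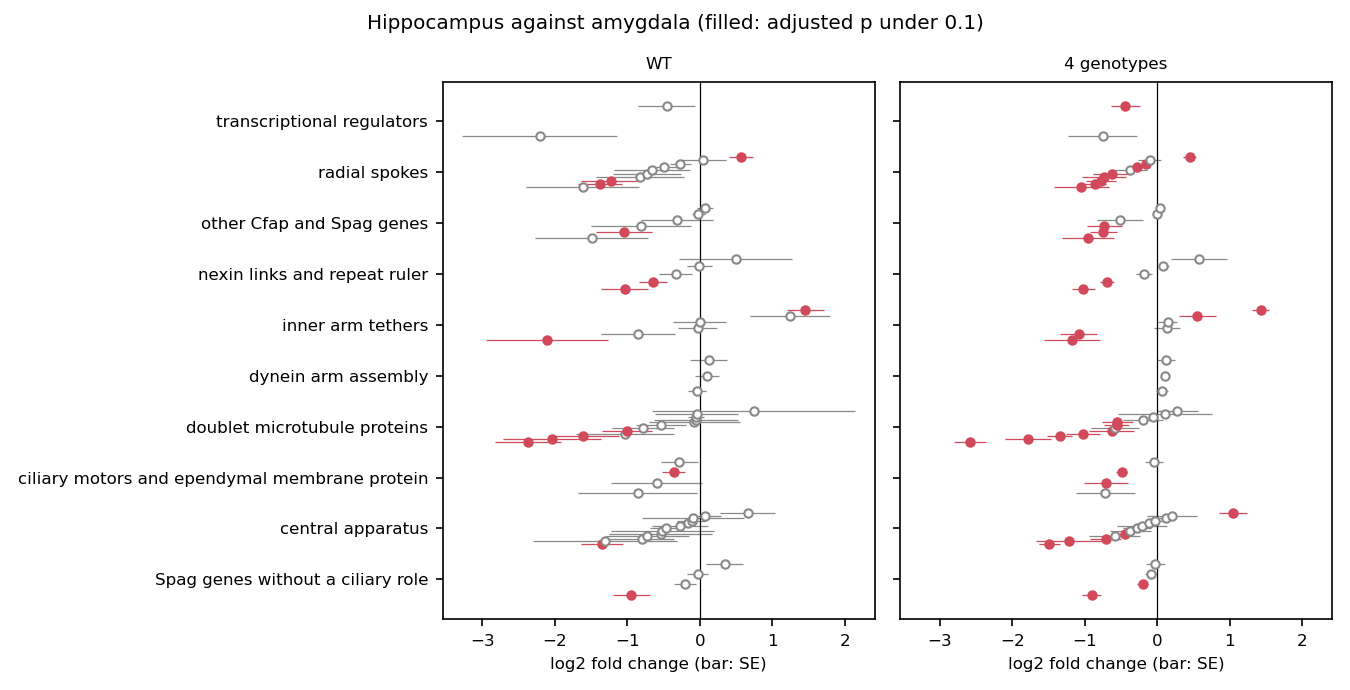
Log2 fold change of hippocampus over amygdala for each tested member gene, in rows by role, with SE as bars; filled points passed an adjusted p of 0.1 (DESeq2). In WT 13 genes are lower and 2 higher, and over the 4 genotypes 30 are lower and 4 higher; with ERCC size factors, not drawn, these were 1 and 2 in WT and 5 and 24 over the 4 genotypes.

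The genotype comparisons asked how loss of the writer, the eraser or both changed these genes. All mutant groups were set against the same 4 WT mice in each region, so the comparisons with WT share their controls. In Kmt2a-HET, 0 of 66 tested genes were called in amygdala and 0 of 65 in hippocampus (DESeq2). The share called among all genes was 0.00988% and 0.0%, and edgeR called 0 members at 0.0% of all genes in either. At an unadjusted p under 0.05 there was 1 member in amygdala (1.52%, against 3.05% of all genes) and 0 in hippocampus (against 2.4%). The members' median log2 fold change was 0.13 in amygdala (-0.00171 for all genes) and 0.04 in hippocampus (0 for all genes). Foxj1 stood at 445, 234, 348 and 266 in the 4 Kmt2a-HET amygdala libraries and at 143, 231, 208 and 247 in WT. These groups overlapped, with a log2 fold change of 0.64 ± 0.34 (SE, DESeq2, adjusted p = 1.0).

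Without Kdm5c a few genes of the cilium were higher in the amygdala. With both Kdm5c-deficient genotypes set against both genotypes that keep the gene, 3 of 64 tested genes were higher and 0 lower, a share of 4.69% against 1.66% of all genes called and 1.38% called higher. The median log2 fold change was 0.25 over the 64 genes and -0.01 over all genes. The 3 genes were Tekt2, Kif19a and Cfap43. With ERCC size factors 0 were called, at 0.142% of all genes, with values of 1.04, 0.32 and 0.61, and the median of all genes moved by -0.15. EdgeR called 2 (1.27% of all genes) and the fit without the libraries numbered 1 also 2 (2.27%). The Cfap43 call was lost under 8 of 23 alternatives, those 3 and the fit without DM replicate 1 (adjusted p = 0.164, DESeq2) among them.

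Tekt2 stood at 28.7, 53.4, 47.4 and 28.7 normalised counts in WT amygdala and at 52.0, 19.2, 71.8 and 23.2 in Kmt2a-HET. It stood at 91.4, 112, 130 and 58.2 in Kdm5c-KO and at 119, 97.5, 52.7 and 100 in DM. Of the 8 libraries without Kdm5c, 6 exceeded all 8 with it, and the other 2 were Kdm5c-KO replicate 4 and DM replicate 3. The log2 fold change was 1.23 ± 0.27 (SE, DESeq2, adjusted p = 0.00111) over both Kmt2a genotypes and 1.31 ± 0.39 (adjusted p = 0.0956) for Kdm5c-KO against WT. Tekt2 lies at chr4:126322121-126325688 (mm10, minus strand).

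Kif19a stood at 120, 131, 120 and 139 in WT and at 144, 140, 166 and 117 in Kmt2a-HET. It stood at 220, 185, 184 and 146 in Kdm5c-KO and at 192, 187, 161 and 201 in DM. Every Kdm5c-KO and DM library exceeded every WT library, while Kmt2a-HET replicate 3 reached into their range. The log2 fold change was 0.46 ± 0.11 (SE, DESeq2, adjusted p = 0.00323) over both Kmt2a genotypes and 0.53 ± 0.15 (adjusted p = 0.0884) for Kdm5c-KO against WT. These were the only 2 of the 64 genes called in Kdm5c-KO against WT, where 0.756% of all genes were called and 0.724% were higher, and the members' median of 0.19 stood against -0.01 for all genes. EdgeR, ERCC size factors and an adjusted p under 0.05 each left 0 calls, the replicate block 1, and at least 1 call was lost when any of 12 of the 16 libraries was left out. Shares of all genes are not given for these settings, so a loss particular to the members was not shown. With the choroid plexus sum as an added term neither was called, though the values were 1.31 for Tekt2 (adjusted p = 0.151) and 0.53 for Kif19a (adjusted p = 0.142, both DESeq2).

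In DM amygdala 5 of 65 tested genes were higher than in WT and 0 lower, against 0.99% of all genes called and 0.92% called higher. The median log2 fold change was 0.33 for these genes and -0.01 for all genes. The count was 9 of 66 with the replicate block, where 1.98% of all genes were called, and 1 by edgeR (0.507%). It was 0 with ERCC size factors (0.0231%) and 0 without the libraries numbered 1 (0.848%). The 5 were the inner arm tethers Cfap43 and Cfap44, the central apparatus genes Cfap65 and Hydin, and Kif19a (0.54 ± 0.15, DESeq2, adjusted p = 0.0574). Cfap43 stood at 31.6, 41.8, 36.6 and 43.0 in WT and at 142, 75.6, 82.6 and 76.5 in DM, with Kdm5c-KO at 80.7, 46.1, 64.7 and 63.4. The DM and WT libraries did not overlap, and DM replicate 1 was far above the others. Kmt2a-HET held 61.6, 32.7, 84.2 and 43.6, and DM replicate 1 alone exceeded all libraries with Kdm5c. In DM the log2 fold change was 1.30 ± 0.30 (SE, DESeq2, adjusted p = 0.00527), and over both Kmt2a genotypes it was 0.74 ± 0.21 (adjusted p = 0.0383). Hydin, a large protein of the central apparatus whose loss causes hydrocephalus in mice, stood at 54.4, 86.4, 77.6 and 91.8 in WT and at 151, 142, 166 and 111 in DM. These groups did not overlap either, and the log2 fold change was 0.88 ± 0.25 (SE, DESeq2, adjusted p = 0.061). Kmt2a-HET stood at 113, 81.3, 178 and 116, so its replicate 3 exceeded every DM library. Kdm5c-KO stood at 97.4, 82.3, 134 and 78.2. Cfap44 rose by 0.76 ± 0.21 (adjusted p = 0.0354) and Cfap65 by 0.84 ± 0.23 (adjusted p = 0.0409) on the log2 scale. Of the 8 libraries without Kdm5c, 3 exceeded all 8 with it for Cfap44, 1 for Cfap65 and 0 for Hydin.

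Choroid plexus markers moved with the DM amygdala group: 8 of 15 were called higher, and DM replicates 1 and 3 carried the signal. Without DM replicate 1 or without WT replicate 3, 1 member was called, at 0.547% and 0.767% of all genes, and with the choroid plexus sum as an added term 0 were called, at 0.338% of all genes. Without WT replicate 1 or 2 it was 3, at 1.23% and 1.07%. The log2 fold changes with that term were 0.55 for Kif19a, 0.74 for Hydin, 0.61 for Cfap44, 0.92 for Cfap43 and 0.46 for Cfap65, so the first was as large as without it and the last was not. In the comparison of Kdm5c loss in the amygdala, 2 of 15 choroid plexus markers were called, and with the choroid plexus term 3 members were called at 1.24% of all genes: Tekt2, Kif19a and Spag5. Cfap43 then had an adjusted p of 0.361 (DESeq2). Cfap43 (chr19:47736857-47919287, mm10, minus strand) overlaps Gsto1 and Gsto2 on the opposite strand. At the transcript level the longest Cfap43 model (5968 bases) held 6.57 to 15.9 normalised counts in WT amygdala, 23.5 to 48.3 in Kdm5c-KO and 26.1 to 103 in DM. A shorter one (3760 bases) held 14.6 to 22.7 and 15.7 to 22.6, and 21.5 to 31.9 in DM. In the hippocampus the longest model held 0.0 to 21.1 in WT and 27.0 to 90.5 in Kdm5c-KO, and the shorter one 18.4 to 30.4 and 37.6 to 45.0, both without overlap. Transcript values are estimates from shared reads and were not tested.

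**Figure D3:**
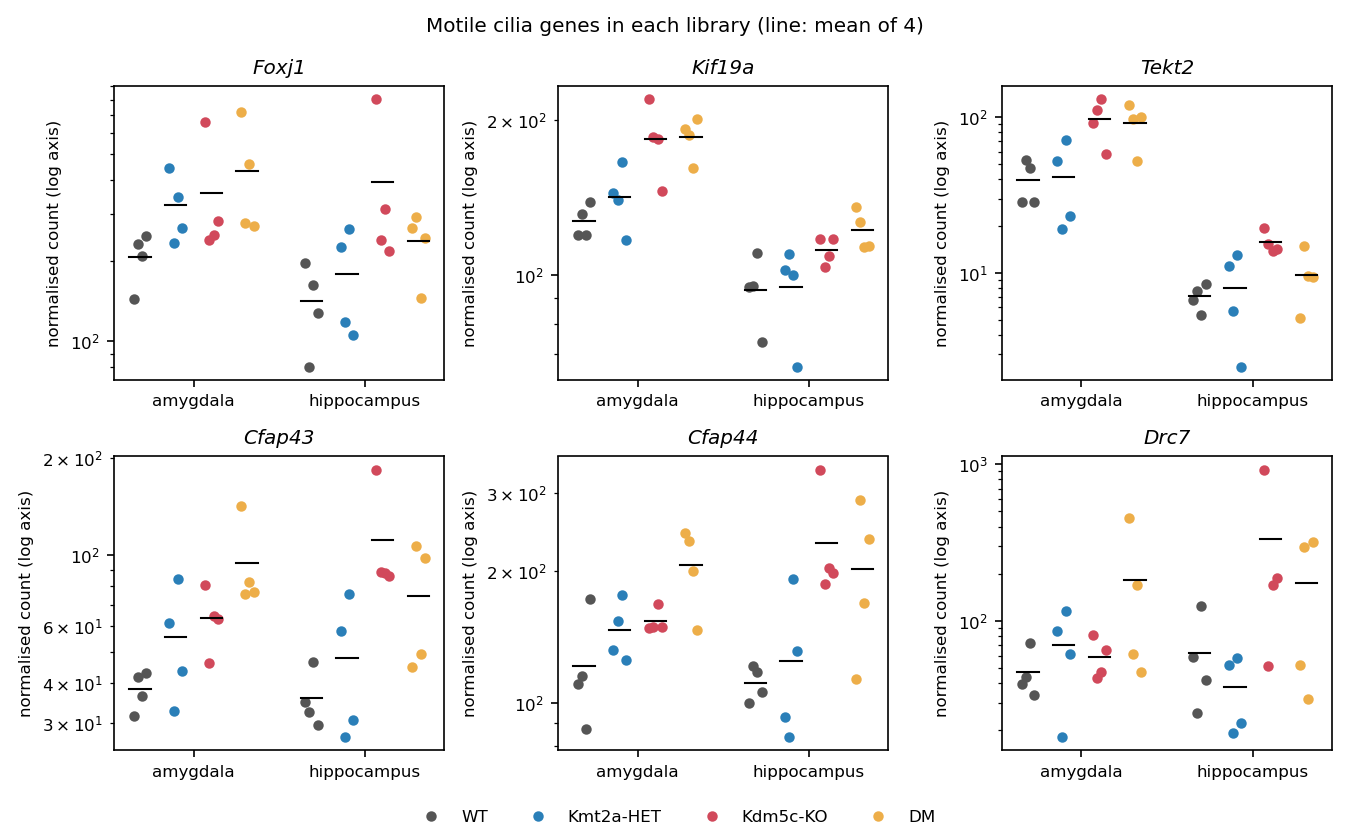
Normalised counts of 6 member genes in each library on log axes, by genotype and region, with the mean of 4 libraries as a line. Kdm5c-KO and DM amygdala points for Kif19a all lie above the WT points, and Drc7 reaches 922 in 1 Kdm5c-KO hippocampal library.

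In the hippocampus, too, some of these genes were higher without Kdm5c, and choroid plexus markers rose beside them. Over both Kmt2a genotypes 6 of 64 tested genes were higher and 0 lower, a share of 9.38% against 2.42% of all genes called and 1.94% called higher. The median log2 fold change was 0.42 for these genes and -0.01 for all genes. The 6 were Cfap43, Cfap44, Tekt1, Drc7, Rsph4a and Spag8. The count was 2 by edgeR (1.38% of all genes), 2 without the libraries numbered 1 (1.7%) and 0 with ERCC size factors (0.118%). Of the 15 choroid plexus markers 11 were called higher in the same comparison, as were 2 of 14 ependymal markers, while 0 of 6 endothelial and 1 of 7 astrocyte genes were called. With the choroid plexus sum as an added term, 0 of 65 members were called, at 0.902% of all genes. The part that choroid plexus tissue plays in the difference was otherwise not tested.

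Cfap43 stood at 34.9, 32.6, 46.5 and 29.7 in WT hippocampus and at 58.1, 27.2, 75.5 and 30.7 in Kmt2a-HET. It stood at 184, 88.3, 88.0 and 86.2 in Kdm5c-KO and at 44.8, 106, 49.1 and 98.0 in DM. All 4 Kdm5c-KO libraries exceeded all WT and Kmt2a-HET libraries, and DM fell into 2 pairs. The high pair, DM replicates 2 and 4, held 1276 and 1348 CPM of choroid plexus markers, and the low pair 51.9 and 55.8 CPM. Its log2 fold change was 1.13 ± 0.27 (SE, DESeq2, adjusted p = 0.00319) over both Kmt2a genotypes and 1.64 ± 0.38 (adjusted p = 0.00475) for Kdm5c-KO against WT. Kdm5c-KO replicate 2 held 64.8 CPM of choroid plexus markers and 88.3 Cfap43 counts. With the choroid plexus term the value over both Kmt2a genotypes was 0.74 and no longer called (DESeq2, adjusted p = 0.14), and that for Kdm5c-KO against WT was 1.30 (DESeq2, adjusted p = 0.00789), the 1 member called there at 0.539% of all genes.

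Cfap44 stood at 100, 122, 118 and 106 in WT and at 339, 187, 203 and 198 in Kdm5c-KO, with DM at 113, 289, 169 and 236. Kdm5c-KO and WT did not overlap, and the difference was 1.05 ± 0.29 on the log2 scale (SE, DESeq2, adjusted p = 0.047). Kmt2a-HET held 93.2, 83.8, 191 and 131, so its replicate 3 lay above Kdm5c-KO replicate 2. Tekt1 stood at 27.0, 15.3, 27.0 and 30.6 in WT and at 155, 27.9, 55.4 and 54.0 in Kdm5c-KO. Here the 2 groups overlapped, and the log2 fold change was 1.55 ± 0.47 (adjusted p = 0.0978, DESeq2). Rsph4a, a radial spoke head protein, stood at 49.5, 52.7, 57.3 and 33.9 in WT and at 243, 74.8, 114 and 83.3 in Kdm5c-KO, without overlap. Its log2 fold change was 1.41 ± 0.37 (SE, DESeq2, adjusted p = 0.0259). For Rsph4a, Kmt2a-HET replicate 3, at 106, lay above Kdm5c-KO replicates 2 and 4. These 4 genes were all that was called of 63 in Kdm5c-KO against WT, where the share among all genes was 1.01% and the median log2 fold change 0.74 for the members and -0.000721 for all genes. EdgeR called 0 of these genes, as did ERCC size factors and the fit without the libraries numbered 1. For those settings shares of all genes are not given, so it was not shown that members lost calls more than other genes. Without Kdm5c-KO replicate 1, the library with 5019 CPM of choroid plexus markers, only 1 gene was called, at 0.583% of all genes. Without WT replicate 4 it was also 1 (0.639%), and without Kdm5c-KO replicate 3, WT replicate 2 or WT replicate 3 it was 2 (0.553% to 0.838%). Without Kdm5c-KO replicate 2 it was 7 of 61, at 1.55% of all genes. In the comparison over both Kmt2a genotypes the count was 3 without Kdm5c-KO replicate 1, at 1.97% of all genes. It was 14 without Kmt2a-HET replicate 3 (3.52% of all genes), 14 without Kdm5c-KO replicate 2 (3.22%), 10 without Kdm5c-KO replicate 4 (2.67%) and 11, 1 of them lower, without DM replicate 3 (2.46%).

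Spag8, a protein of the sperm and respiratory axoneme, was low throughout, at 5.7 to 21.1 counts in the 8 libraries with Kdm5c and 12.3 to 76.0 in the 8 without (1.20 ± 0.39, DESeq2, adjusted p = 0.0931). The ranges overlapped, and the call was lost under 16 of 23 alternatives, edgeR (adjusted p = 0.2) and the fit without Kdm5c-KO replicate 1 (adjusted p = 0.358) among them.

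Drc7, a subunit of the nexin-dynein regulatory complex, had the highest correlation with the choroid plexus sum of the 56 genes (r = 0.89 over 32 libraries, group means removed). It stood at 58.5, 25.9, 124 and 41.6 in WT hippocampus and at 52.6, 19.2, 57.8 and 22.1 in Kmt2a-HET. It stood at 922, 51.3, 170 and 188 in Kdm5c-KO and at 52.5, 296, 31.5 and 317 in DM. The hippocampal libraries at or above 170 were those with 623 CPM or more of choroid plexus markers, apart from WT replicate 3, which held 1148 CPM and 124 Drc7 counts. Over both Kmt2a genotypes the log2 fold change was 2.30 ± 0.62 (SE, DESeq2, adjusted p = 0.017), and 0.70 with the choroid plexus term (adjusted p = 0.161). In the amygdala its highest values, 455 and 170, were those of DM replicates 1 and 3. For Tekt2 the correlation was 0.19, and Kdm5c-KO amygdala libraries with 54.8 to 91.1 CPM of choroid plexus markers held 58.2 to 130 counts. In the hippocampus Tekt2 stood at 6.7, 7.7, 5.4 and 8.5 in WT and at 19.5, 15.3, 13.8 and 14.2 in Kdm5c-KO, a log2 fold change of 1.14 ± 0.50 that did not pass (DESeq2, adjusted p = 0.464).

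**Figure D4:**
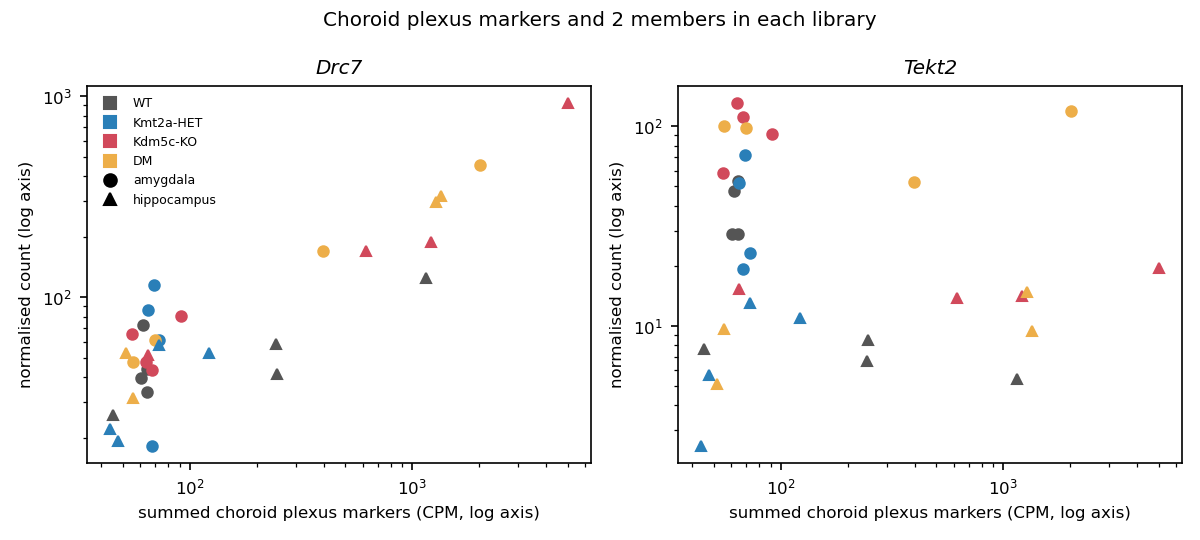
Summed choroid plexus markers (CPM) against normalised counts of Drc7 and Tekt2 in each of 32 libraries, both axes logarithmic, colours by genotype and shapes by region. Drc7 reaches 922 at 5019 CPM, while Tekt2 spans 58.2 to 130 in Kdm5c-KO amygdala at 54.8 to 91.1 CPM.

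In DM hippocampus 0 of 63 tested genes passed against WT by DESeq2 and 0 by edgeR, where 0.881% and 0.368% of all genes were called. At an unadjusted p under 0.05 there were 7 (11.1%, against 7.83% of all genes). The median log2 fold change was 0.24 for the members and 0.00151 for all genes. Values for the 4 genes called in Kdm5c-KO were 1.05 ± 0.38 for Cfap43 (adjusted p = 0.293), 0.85 ± 0.29 for Cfap44 (adjusted p = 0.229), 0.94 ± 0.47 for Tekt1 (adjusted p = 0.627) and 0.79 ± 0.37 for Rsph4a (adjusted p = 0.565, all DESeq2). Tekt1 in DM, at 34.7 to 71.9, did not overlap WT, though libraries with Kdm5c reached 36.3. When DM was set directly against Kdm5c-KO, 0 of 66 genes passed in amygdala (0.00329% of all genes) and 0 of 65 in hippocampus (0.0067%). EdgeR gave 0 in both, at 0.0% of all genes, and 6 members (9.09%, against 2.29% of all genes) and 2 members (3.08% against 4.53%) had an unadjusted p under 0.05. The median log2 difference of the members was 0.10 in amygdala and -0.44 in hippocampus, against 0 for all genes in either, and 8 of the 65 hippocampal values were positive. Without Kdm5c-KO replicate 1 the hippocampal median was -0.10, with 24 of 65 positive, and with the choroid plexus term it was -0.16, with 13 positive. That term turned the amygdala median from 0.10, with 44 of 66 positive, to -0.09, with 23 positive. Cfap43 differed by -0.58 ± 0.37 in the hippocampus and by 0.57 ± 0.29 in the amygdala, and Tekt2 in the amygdala by -0.09 ± 0.38 (SE, adjusted p = 1.0 for each, DESeq2).

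The effect of Kdm5c loss was also compared between the regions. Of 62 tested genes 0 passed by DESeq2 and 0 by edgeR, where 0.0876% and 0.033% of all genes did, and 4 (6.45%, against 3.62% of all genes) had an unadjusted p under 0.05. The differences with their SE were 0.39 ± 0.35 for Cfap43, -0.54 ± 0.43 for Tekt2, -0.13 ± 0.15 for Kif19a and 1.46 ± 0.78 for Drc7 on the log2 scale (adjusted p = 1.0 for each). Genes called in 1 region only were therefore not shown to differ between regions.

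**Figure D5:**
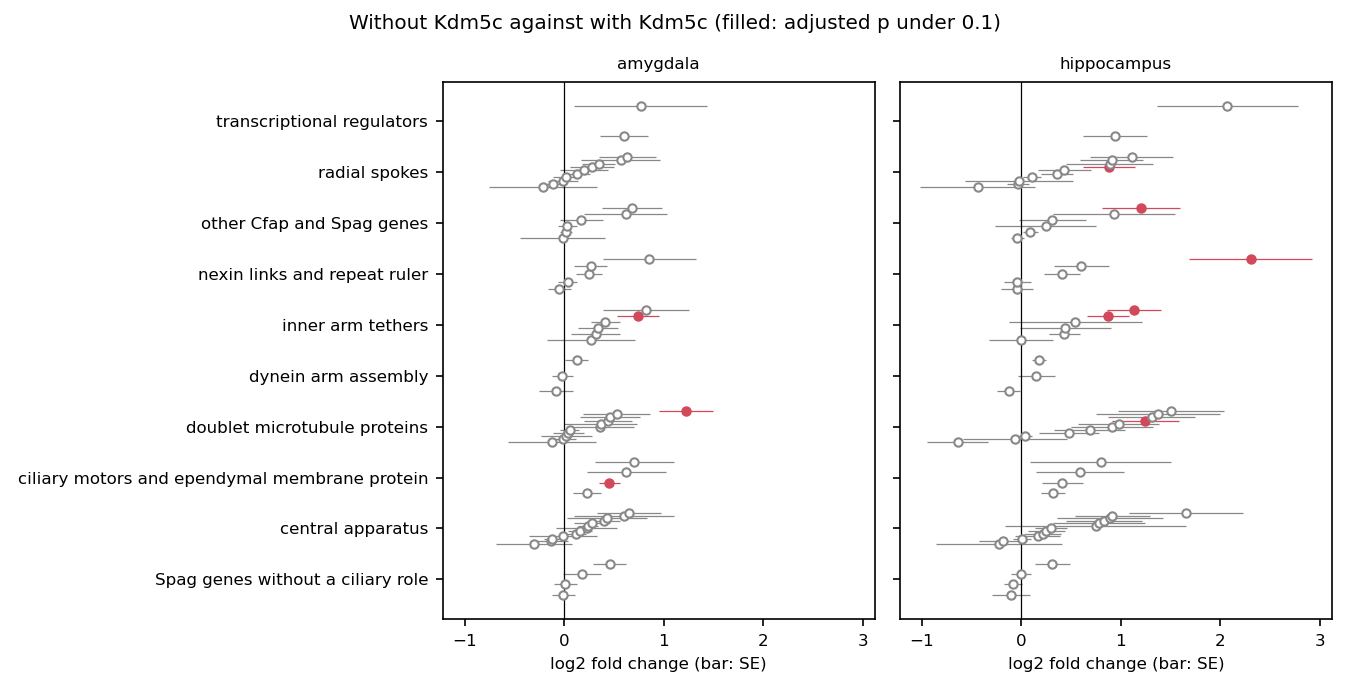
Log2 fold change of Kdm5c-KO and DM over WT and Kmt2a-HET for each tested member gene, in rows by role, with SE as bars; filled points passed an adjusted p of 0.1 (DESeq2). In the amygdala 3 genes passed and in the hippocampus 6, all of them higher.

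Foxj1 and Mcidas did not pass in any genotype comparison. Foxj1 stood at 663, 238, 250 and 281 in Kdm5c-KO amygdala and at 802, 240, 314 and 218 in Kdm5c-KO hippocampus, where WT held 196, 80.5, 162 and 128. Replicate 1, the same mouse, was highest in both regions, and no Kdm5c-KO hippocampal library fell into the WT range. Kmt2a-HET hippocampus held 226, 118, 264 and 106 and overlapped Kdm5c-KO. For Kdm5c-KO against WT in the hippocampus the log2 fold change of Foxj1 was 1.47 ± 0.46 (SE, DESeq2, adjusted p = 0.114). Tmem212 had 1.08 ± 0.63 in the same comparison (adjusted p = 0.717). Mcidas had 0.0 to 2.2 counts in WT hippocampus and 1.8 to 6.9 in Kdm5c-KO, too few for a stated fold.

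The wider programme of the motile cilium was read from lists of genes outside the 68. Of 57 other motile cilia genes tested, 1 was higher without Kdm5c in the amygdala, a share close to the 1.66% of all genes: Dnaic1, an intermediate chain of the outer dynein arm (0.65 ± 0.18, DESeq2, adjusted p = 0.0206). In the hippocampus, where 2.42% of all genes were called, 6 were higher and 0 lower: Tcte1, Dnaic1, Ak7, Ccdc114, Maats1 and Dnali1. The median over the 57 genes was 0.22 in amygdala and 0.48 in hippocampus. Of the regulators of multiciliated cells, none of 15 passed in amygdala (DESeq2, 0 called, 1 at an unadjusted p under 0.05), while 1 of 14 did in hippocampus, Trp73 (0.68 ± 0.21, adjusted p = 0.0529, DESeq2), which acts above Foxj1. Between regions over the 4 genotypes, 22 of the 57 were lower and 4 higher in the hippocampus, in all a share close to the 46.3% of all genes called. Of 15 regulators, 6 were higher and 4 lower there. With ERCC factors the 57 split into 2 lower and 17 higher and the 15 into 1 lower and 10 higher. The 3 with the smallest adjusted p were Gmnc, which acts at the start of multiciliation (2.74, adjusted p = 1.19e-30), Rfx4 (-0.61, adjusted p = 2.31e-20, but 0.03 with ERCC factors) and Rfx3 (0.84, adjusted p = 5.91e-14, all DESeq2).

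Of the axonemal dynein heavy chains, 1 of 15 passed for Kdm5c loss in the amygdala and 3 in the hippocampus, none of them lower, against 1.66% and 2.42% of all genes. Dnah1, an inner arm chain, passed in both. It ran from 318.5 to 597 in WT amygdala and from 961 to 1520 in Kdm5c-KO, and from 151 to 200.3 against 715 to 930 in the hippocampus. Neither pair of groups overlapped, and DM lay at 965 to 1249 and at 781 to 886. Kdm5c loss gave a log2 fold change of 1.15 ± 0.13 in amygdala and 2.21 ± 0.09 in hippocampus, and this difference between regions passed its own test (1.07 ± 0.17, DESeq2, adjusted p = 8.22e-07). With ERCC factors Dnah1 stood at 0.92 in amygdala, where it was not called, and at 2.02 in hippocampus (DESeq2, adjusted p = 0.00023). Dnah11 (1.46 ± 0.37, adjusted p = 0.0079) and Dnah6 (0.91 ± 0.23, adjusted p = 0.011) were the other heavy chains called for Kdm5c loss in the hippocampus.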

How the data were processed

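RNA was taken from homogenised amygdala and hippocampus, ERCC spike-in RNA was added, and oligo-dT primed directional libraries were made. Per the file headers the deposited tables hold expected counts per gene and per transcript, estimated by the authors and not whole in 7.07% of gene values. The submitters' processing notes name STAR 2.5.3a, featureCounts (Subread 1.5.0), deepTools 3.1.3, DESeq2 1.14.1 and mm10, and the program that gave the expected counts is not given in the sources used here. Counts were rounded. Gene IDs of 53620 of 53715 genes were matched to GENCODE M21, 59 members with their version and 9 without. The 92 ERCC sequences were kept out of all tests.

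Fits used DESeq2 1.42.0 in R 4.3.3 with Wald tests and unshrunken fold changes. Each region's 16 libraries were fitted together, and all 32 for comparisons between regions. Calls were made at an adjusted p under 0.1 over all genes. Normalised counts are counts divided by DESeq2 size factors, within a region for genotypes and over 32 libraries for regions. TPM used the effective gene length, and correlations used log2(CPM + 0.1). Alternatives were edgeR 4.0.16, TMM and ERCC size factors, a filter of 10 counts in 4 libraries, a threshold of 0.05, a replicate block, 2 groups alone and each mouse left out. Leaving out the libraries numbered 1 and a choroid plexus term (log2 summed CPM) were added after seeing the data. The scripts were tested on simulated data. Members and gene lists were chosen with earlier results of these data known.

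Labels give the mouse of each library, so regions are paired by mouse. The correlation of deviations was over 0.1 in 10 of 16 such pairs (median 0.134). Named are Foxj1, Tmem212, Kif19a and Mcidas, up to 10 called members per comparison, the 2 highest per role, members at 0, the 5 closest other genes, the 3 most and least variable, and called genes of the lists. Members higher in the hippocampus beyond this rule, Spag5 under the choroid plexus term and the genes whose sequences are shown were chosen after their values were seen.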

Additional observations from a re-analysis of the deposited data

Results flagged for a closer look

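In each group of 4 libraries the highest and lowest values of 13 member genes and of the choroid plexus sum were compared with their neighbours, 112 groups in all, of which about 1 in 20 is marked by chance. In 9 of them a value stood apart from the other 3 of their group. Kdm5c-KO replicate 1 was the highest hippocampal library for Foxj1 (802.3, next 313.6), Cfap43 (183.5, next 88.3), Cfap44 (338.7, next 202.8), Drc7 (921.8, next 188.4) and Spag8 (76.0, next 22.7). It is the library with 5019 CPM of choroid plexus markers. The same mouse had the highest Foxj1 in the amygdala (662.6, next 281.2), where its choroid plexus markers were at 91.1 CPM. Cfap43 in DM amygdala replicate 1 was 141.7 (next 82.6), a library with 2027 CPM of choroid plexus markers. Cfap44 in Kdm5c-KO amygdala replicate 3 was 168.0, against 149.1 for the next and 148.4 for the lowest. Spag8 in Kmt2a-HET hippocampus replicate 3 was 13.1 (next 6.58).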

How the results depend on the processing

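The counts of called members depended on the processing, and between regions the split by direction depended on the size factors. Of 931 values of single genes, 758 stayed called, 170 kept the direction but not the call, and 3 reversed. All 3 were under ERCC size factors, which moved the median of all genes by 0.77 (WT) and 0.65 (4 genotypes) on the log2 scale between regions: Drc1 at 0.40 in WT and 0.016 over the 4 genotypes, and Kif19a at 0.12. ERCC factors left 0 called members for Kdm5c-KO and DM against WT in the amygdala, for Kdm5c-KO against WT in the hippocampus and for Kdm5c loss in both regions, and 3 between regions in WT (1 lower, 2 higher), and over the 4 genotypes 29, with 5 lower and 24 higher. EdgeR gave 0 for Kdm5c-KO in either region, 1 for DM amygdala and 2 for Kdm5c loss in the hippocampus. At an adjusted p under 0.05, Kdm5c-KO amygdala had 0 and DM amygdala 3. With 2 groups alone, Kdm5c-KO amygdala and DM hippocampus each had 1. Without the libraries numbered 1, whose gene deviations fell with transcript length (r = -0.356 to -0.133, though WT hippocampus 3 at -0.191 and DM amygdala 4 at -0.179 lie in that range), the counts were 1 (Kdm5c-KO amygdala), 0 (DM amygdala), 0 (Kdm5c-KO hippocampus), 1 (DM hippocampus) and 2 (Kdm5c loss, hippocampus). With the choroid plexus term they were 0 (with folds unmoved), 0, 1, 1 and 0, and 35 between regions in WT. Leaving out 1 mouse took 1 library from fits within a region and 2 from fits between regions. It gave 0 to 2 for Kdm5c-KO and 1 to 7 for DM in the amygdala, 1 to 7 for Kdm5c-KO and 0 to 1 for DM in the hippocampus, 2 to 4 and 3 to 14 for Kdm5c loss in the amygdala and hippocampus, 8 to 17 between regions in WT and 31 to 41 over the 4 genotypes. Shares of all genes stand beside only some of these counts in the sections above. Without them a changed count does not show a change particular to the members. The cause of these changes was not tested.

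The labels tie no litter, batch or day to a replicate number: 20 of 48 same-numbered pairs correlated above 0.1, with 10 of 12 for number 1 (median r 0.237) but 2, 5 and 3 of 12 for numbers 2, 3 and 4. Mouse identifiers do set some apart: mice numbered 1 carry the lowest numeric ones, and only Kdm5c-KO 4 and DM 4 carry the prefix NT. What the identifiers stand for is not given in the sources used here. In all, 13 of 32 libraries were closest to their own number. With the replicate block Kdm5c-KO amygdala had 1 call and DM amygdala 9. The mouse block between regions changed no call of a named gene. At these depths, genes of under 10 counts, such as Mcidas, allow no stated fold.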
